A study of Mus musculus with 12 samples.

Results

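The 7 genes described here, Birc2, Birc3, Xiap, Traf1, Traf2, Traf3 and Traf6, are inhibitors of apoptosis (IAPs) and TNF-receptor-associated factors (TRAFs). They were taken by gene symbol, as a list drawn up with earlier results of these data known, from the 25124 entries of an RNA-seq table of MC3T3-E1 cells. All 7 were found, and all 7 were among the 11765 genes tested, which are those whose log2 value averaged 4 or more. MC3T3-E1 is an established line of mouse osteoblastic cells from calvaria. The study set 4 groups of 3 polyA RNA libraries side by side: TNFa and BMP4 together, TNFa alone, BMP4 alone, and untreated cells. All groups carry the genotype label "none", and every culture was first held for 30 min in medium with 2.5% serum. TNFa was then given or not at 10 ng/mL for 30 min, and BMP4 given or not at 10 ng/mL for 3 h, by the treatment protocol. Another label states 3 h for each factor, so how long the cells saw TNFa is not settled. The TNFa library titles also hold the word p65, with no explanation. Replicate 1 of every group belongs to 1 labelled batch and replicates 2 and 3 to the other, so each batch holds every group. The labels do not name separate cultures, and p-values therefore measure the spread between these libraries, which may be technical.

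IAPs and TRAFs sit where the TNF receptor decides between survival signalling and cell death. TRAF2 binds the adaptor TRADD and brings in cIAP1 and cIAP2, the products of Birc2 and Birc3, whose RING domains attach ubiquitin to RIPK1 and so build the platform for NF-kB activation. The same ligases, held together with TRAF2 and TRAF3, keep the kinase NIK (Map3k14) at a low level and restrain the alternative NF-kB pathway. XIAP binds and inhibits caspases directly, TRAF1 is a TRAF without a RING domain that pairs with TRAF2, and TRAF6 is the ubiquitin ligase of the interleukin-1, Toll-like and RANK receptors. Birc2, Birc3, Traf1 and Traf2 are classical NF-kB target genes in other cell types.

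The libraries held 13.7 to 15.5 M tags (M, 1e6), except TNFa+BMP4 replicate 2 with 20.6 M. Of 9 osteoblast markers 6 averaged a log2 value of 4 or more (Runx2, Sp7, Col1a1, Col1a2, Sparc and Pth1r), and the maturation markers Alpl, Bglap and Ibsp were below it. Of 7 leukocyte markers 2 reached 4 (Cd68 and Lyz2), with Adgre1 and Cd3e among those at 0 in every library. The endothelial marker Pecam1 and the epithelial marker Cdh1 were the only ones of their lists to reach 4, Kdr and Epcam were at 0, and 0 of 3 adipocyte markers reached it. The summed unlogged level of the epithelial list was 28.9 to 35.9 in TNFa+BMP4 libraries, 36.7 to 42.3 in TNFa, 35.1 to 39.7 in BMP4 and 45.9 to 49.5 in untreated libraries. For the endothelial list it was 45.6 to 51.3, 36.4 to 43.1, 41.2 to 48.2 and 36.7 to 44.6 in the same order of groups, and for the leukocyte list 52.4 to 59.2, 53.7 to 59.1, 50.9 to 58.7 and 53.5 to 58.4. The part of these levels in the results was not tested. As a check on the treatments, the NF-kB target Nfkbia differed by 2.60 ± 0.13 (log2, SE) with TNFa, and the BMP target Id1 by 1.66 ± 0.08 with BMP4.

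TNFa raised 5 of the 7 genes and left 2 without a detected change. Birc3, Traf3, Birc2, Traf2 and Traf1 rose, while Xiap and Traf6 differed from untreated cells by less than 0.1 on the log2 scale. Across all genes tested, 9.16% were called higher and 6.32% lower at a Benjamini-Hochberg adjusted p under 0.05 in a limma fit with batch as a term. The median difference of the 7 members was 0.75, against -0.01 for all genes tested. The 3 TNFa libraries lay above the 3 untreated libraries for all 5 genes, and 17.0% of all genes tested had groups that did not overlap, in either direction. In bulk RNA a change in the make-up of the cells and a change in RNA per cell cannot be told apart.

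**Figure D1:**
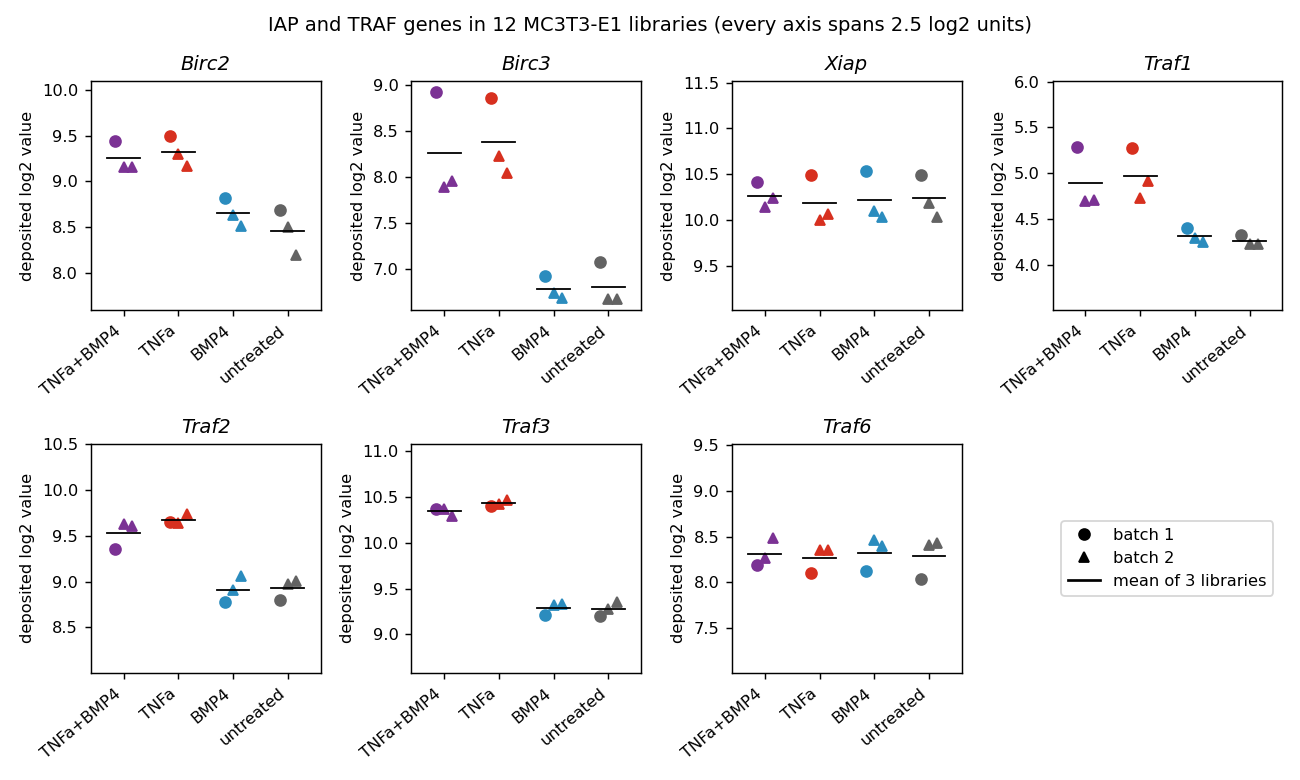
Deposited log2 values of the 7 genes in each of the 12 libraries, 1 panel per gene, with circles for batch 1, triangles for batch 2 and a line at the mean of 3 libraries. In the panels of Birc2, Birc3, Traf1, Traf2 and Traf3 the libraries with TNFa lie above those without it, and in the panels of Xiap and Traf6 all 4 groups overlap.

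Birc3 encodes cIAP2. It lies on chromosome 9 (transcript NM_007464, mm10 positions 7848701 to 7873170, minus strand). Its log2 value was 8.87, 8.23 and 8.05 in TNFa replicates 1 to 3, against 7.07, 6.67 and 6.67 in untreated replicates 1 to 3. The lowest TNFa library was thus above the highest untreated library by nearly a full log2 unit, and replicate 1 was the highest of its group in both. The group means were 8.38 ± 0.43 with TNFa and 6.80 ± 0.23 in untreated cells (SD, n = 3 each). The batch-adjusted difference was 1.57 ± 0.12 (SE, 95% interval 1.33 to 1.82, limma adjusted p = 1.56e-09), a 2.98-fold rise and the largest of the 7 on this scale. It ranked 37 from the top among all genes tested. The difference was 1.79 within batch 1 and 1.47 within batch 2. In the authors' deposited table Birc3 rose by 2.26 on the log2 scale, or 4.78-fold. With TNFa, differences from the deposited log2 columns were smaller than the authors' for every member that rose, most of all at low levels. This is called compression below. Traf3 gave 1.15 against the authors' 1.30, and the weakly expressed Traf1 gave 0.71 against 3.45.

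Birc2, the gene of cIAP1, is the immediate neighbour of Birc3 on the same strand (NM_001291503, chromosome 9, 7818226 to 7836806). The transcripts are 11.9 kb apart with 0 annotated genes between them. Birc2 stood at 9.49, 9.30 and 9.17 in TNFa replicates 1 to 3, against 8.68, 8.50 and 8.19 in untreated replicates 1 to 3. The groups did not overlap, although the step was smaller than for Birc3. The difference was 0.86 ± 0.07 (SE, 95% interval 0.71 to 1.02, limma adjusted p = 2.15e-08), or 1.82-fold, with 0.81 in batch 1 and 0.89 in batch 2. It ranked 128 from the top, and the authors' deposited table gives 1.03.

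Because the genes are paralogs, their transcripts were searched for shared sequence in the GENCODE vM21 annotation. Of the 2618 stretches of 50 bases in the Birc3 transcript, 299 (11.4%) also occurred in transcripts of other genes. Among these were Birc2 and 2 predicted genes, Gm7019 and Gm43393. For Birc2 the share was 2.21% of 3081 stretches and for Xiap 1.30% of 6621, in which they lay in Gm17791. The 4 TRAF transcripts shared 0 in the GENCODE sequences searched. For Traf1 and Traf2 these were 2325 and 2151 bases long, against exon lengths of 3820 and 3052 bases in the authors' counts. For Birc2 and Birc3 they were 3130 and 2667 bases long, against 3366 and 2800. For Traf3 and Traf6 they were 7060 and 6169 bases long, against 7146 and 6178. Part of the counted length of all these genes was therefore not searched. How the authors' counting treated reads that match more than 1 place is not given in the sources used here, so part of the Birc3 value is uncertain.

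The balance of the neighbours was followed as the Birc3 log2 value minus the Birc2 log2 value, each per kb of exon. This level difference was -0.25, -0.997 and -0.94 in TNFa+BMP4 replicates 1 to 3 and -0.36, -0.81 and -0.86 in TNFa replicates 1 to 3. It was -1.63, -1.63 and -1.57 in BMP4 replicates 1 to 3 and -1.34, -1.57 and -1.26 in untreated replicates 1 to 3. Birc2 was thus the more abundant of the pair per kb in all 12 libraries, and the gap was narrower in all 6 libraries with TNFa than in the 6 without it. The means were -0.73 ± 0.42, -0.68 ± 0.27, -1.61 ± 0.04 and -1.39 ± 0.16 in TNFa+BMP4, TNFa, BMP4 and untreated cells (SD, n = 3 each). These are descriptions, and the compression of low values bears more on Birc3 than on Birc2.

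**Figure D2:**
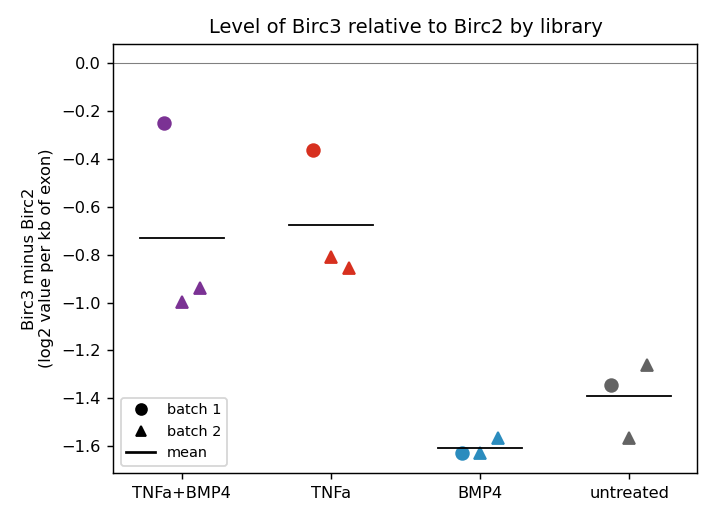
Birc3 minus Birc2, as log2 value per kb of exon, in each of the 12 libraries by group, with circles for batch 1, triangles for batch 2 and a line at the mean. The 6 libraries with TNFa lie between -0.997 and -0.25, and the 6 libraries without TNFa between -1.63 and -1.26.

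Traf3, whose product restrains NIK, had the tightest TNFa replicates of the rising genes (NM_011632, chromosome 12, 111166370 to 111267155, plus strand). Its log2 value was 10.40, 10.43 and 10.46 in TNFa replicates 1 to 3, against 9.20, 9.28 and 9.36 in untreated replicates 1 to 3. The groups were separated by more than a log2 unit, many times their internal spread. The difference was 1.15 ± 0.06 (SE, 95% interval 1.04 to 1.27, limma adjusted p = 1.58e-12), with 1.21 in batch 1 and 1.13 in batch 2. The authors' deposited table gives 1.30. A gene on the opposite strand, 4930595D18Rik, overlaps the Traf3 locus and shares 0 exon bases with it.

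Traf2, which carries the cIAPs to the receptor, rose less (NM_001290413, chromosome 2, 25517982 to 25546940, minus strand). Its log2 value was 9.65, 9.64 and 9.73 in TNFa replicates 1 to 3, against 8.80, 8.97 and 9.01 in untreated replicates 1 to 3. The TNFa libraries agreed closely with one another, and all were above the untreated ones. The difference was 0.75 ± 0.06 (SE, 95% interval 0.62 to 0.88, limma adjusted p = 2.00e-08), or 1.68-fold. The authors' deposited table gives 0.87.

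Traf1 was the most weakly expressed member (NM_009421, chromosome 2, 34941750 to 34961772, minus strand). Its log2 value was 5.27, 4.73 and 4.92 in TNFa replicates 1 to 3, against 4.33, 4.23 and 4.23 in untreated replicates 1 to 3. Every TNFa library was above every untreated library, and the TNFa libraries were more spread than the untreated ones. The difference on this scale was 0.71 ± 0.09 (SE, 95% interval 0.52 to 0.90, limma adjusted p = 5.99e-06). It was 0.94 within batch 1, which has 1 library per group, and 0.59 within batch 2. The authors' deposited table gives a log2 fold change of 3.45 for Traf1, or 10.9-fold, which is larger than its value of 2.26 for Birc3. Whether Birc3 or Traf1 changed most therefore depends on which of the deposited scales is read.

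Xiap, the caspase inhibitor, was unlike the cIAP genes (NM_001301639, chromosome X, 42068398 to 42109664, plus strand). Its log2 value was 10.49, 10.00 and 10.07 in TNFa replicates 1 to 3, against 10.49, 10.19 and 10.04 in untreated replicates 1 to 3. The groups lay on top of each other, and the libraries of batch 1 were above those of batch 2 in every group. The difference was -0.05 ± 0.06 (SE, 95% interval -0.18 to 0.07, limma adjusted p = 0.638). Traf6, the adaptor of the interleukin-1 and Toll-like route, stood at 8.11, 8.35 and 8.36 in TNFa replicates 1 to 3, against 8.04, 8.40 and 8.43 in untreated replicates 1 to 3 (NM_009424, chromosome 2, 101678420 to 101701668, plus strand). Here too the groups overlapped, with batch 1 below batch 2. The difference was -0.02 ± 0.07 (SE, 95% interval -0.17 to 0.13, limma adjusted p = 0.903). For both genes the interval excludes the rise of 0.52 that was the lower bound for Traf1, the smallest of the 5 rises on this scale.

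Set per kb of exon, the order of the members by level differed between the groups. In TNFa-treated cells the mean log2 value per kb was 8.06 for Traf2, 7.59 for Traf3, 7.57 for Birc2, 7.45 for Xiap, 6.89 for Birc3, 5.64 for Traf6 and 3.04 for Traf1. In untreated cells it was 7.50 for Xiap, 7.31 for Traf2, 6.71 for Birc2, 6.44 for Traf3, 5.67 for Traf6, 5.32 for Birc3 and 2.33 for Traf1. Xiap led in untreated cells and stood below Traf2, Traf3 and Birc2 with TNFa, and Birc3 passed Traf6. Traf3, Birc2 and Xiap differed by less in TNFa-treated cells than the SD of 0.26 among the 3 Xiap libraries. Likewise, Xiap and Traf2 differed by less in untreated cells than the SD of 0.23 among the 3 untreated Xiap libraries. The order among these close genes is therefore not settled. Traf1 was lowest in both.

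The sequences before the starts of 4 genes are shown side by side. Birc3 had the largest rise in the library log2 values, and Traf3 was the riser with the smallest spread among TNFa libraries. Traf1 was the weakly expressed riser, and Xiap the IAP gene that was not called. The sequences are the 250 bases before the transcript start, 5′ to 3′ on the gene's strand, from RefSeq promoters of GRCm38.p6, the build of mm10. Positions are chr9:7873171-7873420 (minus strand) for Birc3, chr12:111166120-111166369 (plus) for Traf3, chr2:34961773-34962022 (minus) for Traf1 and chrX:42068148-42068397 (plus) for Xiap. Capitals mark matches to GGGNNNNNCC on either strand, a loose form of the NF-kB motif.
Birc3: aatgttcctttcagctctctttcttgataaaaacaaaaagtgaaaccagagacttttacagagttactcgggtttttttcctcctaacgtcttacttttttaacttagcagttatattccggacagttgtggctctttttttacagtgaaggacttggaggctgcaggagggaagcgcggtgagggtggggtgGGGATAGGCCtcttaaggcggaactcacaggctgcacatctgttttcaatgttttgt
Traf3: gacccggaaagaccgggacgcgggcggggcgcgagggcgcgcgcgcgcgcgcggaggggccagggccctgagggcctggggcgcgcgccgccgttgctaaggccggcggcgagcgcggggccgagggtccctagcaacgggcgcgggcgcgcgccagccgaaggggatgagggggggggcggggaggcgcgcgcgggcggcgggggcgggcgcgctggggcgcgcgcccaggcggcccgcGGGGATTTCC
Traf1: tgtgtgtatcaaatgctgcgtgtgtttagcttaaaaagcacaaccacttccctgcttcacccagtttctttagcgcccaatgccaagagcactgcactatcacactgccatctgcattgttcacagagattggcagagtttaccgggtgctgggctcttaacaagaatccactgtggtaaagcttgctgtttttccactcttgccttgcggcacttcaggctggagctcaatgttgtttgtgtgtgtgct
Xiap: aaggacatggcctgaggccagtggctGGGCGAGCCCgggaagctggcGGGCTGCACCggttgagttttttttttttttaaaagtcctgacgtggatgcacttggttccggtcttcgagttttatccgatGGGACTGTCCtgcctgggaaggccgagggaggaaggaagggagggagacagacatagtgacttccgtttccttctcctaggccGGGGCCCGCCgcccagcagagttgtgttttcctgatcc
All 7 genes matched a RefSeq window by symbol and start. Of the 2 RefSeq windows for Birc2 and the 3 for Xiap, only the one at the start of the transcript given above was used. The 7 windows used run from 250 bases before to 50 after the start. Each was searched on both strands for GGGNNNNNCC and for the stricter NF-kB consensus, whose matches are a subset of the looser ones. The consensus matched only in Traf3, as GGGGATTTCC in the 10 bases just before the start, and it matched in 4.51% of all 32851 RefSeq windows of that length. The looser motif matched in 5 of 7 windows, against 50.8% of all windows. It had 9 matches in Xiap, 5 of them before the start and 1 site among these counted on both strands, 4 in Traf2, 2 in Traf6 and 1 each in Birc3 and Traf3. It had none in Birc2 and Traf1, so that genes that rose were found with and without a match. GC content ranged from 43.0% in Birc3 and 48.7% in Traf1 to 84.0% in Traf3, around a median of 52.7% over all windows. A match is a description of the letters and not a bound site, and sequence outside these windows was not searched.

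None of the 7 genes was called with BMP4 alone. Of all genes tested, 6.75% were called higher and 5.47% lower with BMP4. The groups overlapped for all 7 members, and they were apart for 14.6% of all genes tested. At these shares 7 genes give few such cases or none, so the counts say nothing particular about the members. Birc2 came nearest to a call, at 8.82, 8.63 and 8.51 in BMP4 replicates 1 to 3, against 8.68, 8.50 and 8.19 in untreated replicates 1 to 3. The BMP4 libraries reached higher and did not go as low, yet the ranges overlapped. The difference was 0.19 ± 0.07 (SE, 95% interval 0.04 to 0.35, unadjusted p = 0.0171, limma adjusted p = 0.0982). Without untreated replicate 2 it was 0.27 and was called (limma adjusted p = 0.0307). The other 6 differences lay between -0.03 and 0.05. Birc3, for instance, stood at 6.92, 6.74 and 6.68 in BMP4 replicates 1 to 3, and its interval ran from -0.27 to 0.22. For Traf3 the interval was -0.10 to 0.13, whose upper bound is far below the TNFa difference of 1.15. The count of members with an unadjusted p under 0.05 was 1, and the authors' deposited table calls 0.

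**Figure D3:**
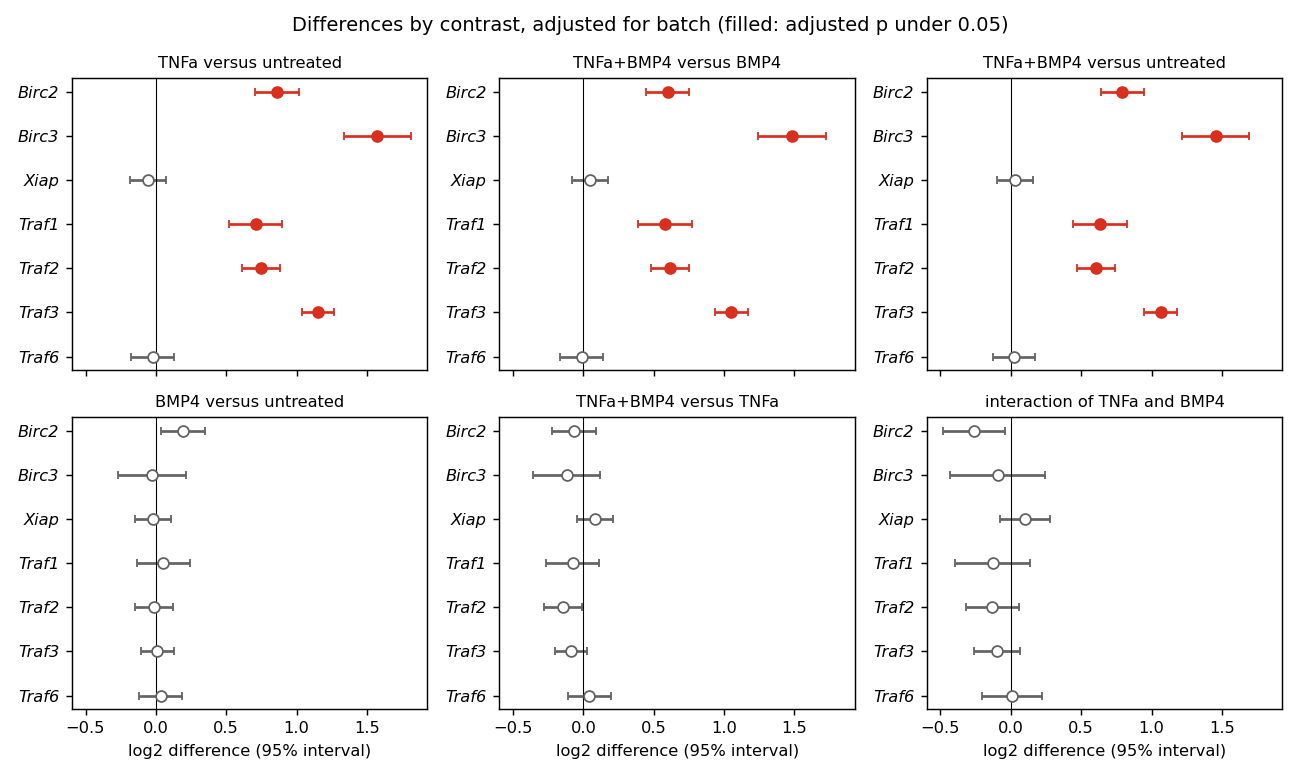
Batch-adjusted log2 differences of the 7 genes in 5 contrasts and the interaction, with 95% intervals; filled red points have a limma adjusted p under 0.05. In the upper panels, the contrasts with TNFa on 1 side, 5 genes lie at 0.58 or above and Xiap and Traf6 lie between -0.05 and 0.05, while in the lower panels no point is filled.

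In cells given both factors, Birc3, Traf3, Birc2, Traf2 and Traf1 were again higher than without TNFa, and Xiap and Traf6 were again not called. Against BMP4 alone, 5 of the 7 were called higher with both factors, where 8.78% of all genes tested were called higher and 7.41% lower. Against untreated cells, 5 were called higher with both factors, where 16.8% of all genes were called higher and 14.4% lower. These contrasts share the TNFa+BMP4 libraries, and the second shares the untreated libraries with the contrast of TNFa alone, so they are given side by side only. Birc3 stood at 8.92, 7.90 and 7.96 in TNFa+BMP4 replicates 1 to 3, well above the BMP4 libraries listed above. It differed by 1.48 ± 0.12 (SE) from BMP4 alone and by 1.46 ± 0.12 from untreated cells, with limma adjusted p of 5.26e-09 and 4.92e-09. Its difference from BMP4 alone was 2.00 within batch 1 and 1.22 within batch 2. Replicate 1 was about a full log2 unit above the others of its group, a wider split than in any other group.

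Traf3 stood at 10.36, 10.37 and 10.29 in TNFa+BMP4 replicates 1 to 3, against 9.21, 9.32 and 9.34 in BMP4 replicates 1 to 3. The groups were nearly a full unit apart, with a difference of 1.05 ± 0.06 (SE). Birc2 stood at 9.44, 9.16 and 9.16 with both factors, against the BMP4 values given above, a difference of 0.60 ± 0.07. Its lowest library with both factors was above its highest with BMP4 alone. Traf2 stood at 9.35, 9.63 and 9.61 with both factors, against 8.77, 8.90 and 9.06 with BMP4 alone, a difference of 0.62 ± 0.06. Traf1 stood at 5.28, 4.70 and 4.71 with both factors, against 4.41, 4.30 and 4.25 with BMP4 alone, a difference of 0.58 ± 0.09 (limma adjusted p = 7.77e-05). For Traf2 and Traf1 too the groups did not overlap. The Traf1 difference was 0.87 within batch 1 and 0.43 within batch 2. Without a batch term the Traf1 difference of 0.58 was not called (limma adjusted p = 0.104). Groups did not overlap for 5 members in this contrast, against 17.4% of all genes, and for 5 in the contrast with untreated cells, against 25.4%. Xiap stood at 10.42, 10.14 and 10.24 with both factors and Traf6 at 8.19, 8.27 and 8.49, and both overlapped every other group.

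Adding BMP4 to TNFa changed none of the 7 beyond the threshold. Of all genes tested, 5.47% were called higher and 6.2% lower with both factors than with TNFa alone. Traf2 was the lowest, at -0.14 ± 0.06 (SE, 95% interval -0.28 to -0.01, unadjusted p = 0.0369, limma adjusted p = 0.164). All 3 of its TNFa+BMP4 libraries were below all 3 TNFa libraries, with a difference of -0.30 in batch 1 and -0.07 in batch 2. Traf3 likewise lay lower in every TNFa+BMP4 library, with a difference of -0.09 ± 0.06 (SE, limma adjusted p = 0.333). Groups did not overlap for these 2 of 7 genes, against 15.8% of all genes tested. Beside the shares over all genes, counts this small in 7 genes say nothing particular about the members. Birc3 differed by -0.12 (95% interval -0.36 to 0.12) and had opposite signs in the batches, 0.06 in batch 1 and -0.21 in batch 2. Birc2 differed by -0.07 (95% interval -0.22 to 0.09). The authors' deposited table calls 0 of the 7.

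Whether BMP4 altered the response to TNFa was tested directly as an interaction, in which the difference made by TNFa in BMP4-treated cells is set against the one it made in cells without BMP4. No member was called, and 0.017% of all genes, or 2, were. Birc2 had the largest difference, -0.26 ± 0.11 (SE, 95% interval -0.48 to -0.04, unadjusted p = 0.0216, limma adjusted p = 0.941). The estimate has the sign of a smaller Birc2 response when BMP4 is present, and it does not pass the adjustment. The other 6 lay between -0.13 and 0.10.

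The levels of several members also followed batch. Xiap was 10.42 to 10.53 in the 4 libraries of batch 1 and 10.00 to 10.24 in the 8 of batch 2, without overlap. Traf6 went the other way, at 8.04 to 8.19 in batch 1 and 8.27 to 8.49 in batch 2. For Birc3 the difference, batch 1 minus batch 2, averaged 0.59 over the 4 groups and ran from 0.22 to 1.00, for Birc2 it averaged 0.28 and for Traf1 0.32. For Traf3 and Traf2 it averaged -0.06 and -0.17. For Xiap and Traf6 the split by batch was thus wider than any difference between treatments.

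For each gene that rose, the 3 genes whose batch-centred values were most alike over the 12 libraries were listed from 11758 others by Pearson's r. The 6 libraries with TNFa lie apart from the 6 without it for all 5 members that rose, so r mainly follows that split and is a description. Traf3 was most like Tnip1 (0.998), Nfkb2 (0.998) and H2-K1 (0.998), which differed with TNFa by 1.65, 1.93 and 1.46 on the log2 scale. Birc3 was most like Nod2 (0.994), a sensor of bacterial cell walls, Nfe2l2 (0.994), the regulator of antioxidant genes, and Ifi35 (0.993). Traf2 was most like the chemokine Ccl9 (0.992), Ifi47 (0.991) and Nub1 (0.990). Traf1 was most like Mrpl4 (0.994), the exonuclease gene Trex1 (0.992) and Atrip-trex1 (0.991), the last of which is a readthrough entry that can share reads with Trex1. Birc2 was most like the gap junction gene Gjc1 (0.992), Arhgef3 (0.988) and Osbpl8 (0.982). The 5 sets of 3 had no gene in common.

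Counts for the other genes of the pathway are read beside the shares over all genes tested, which were 9.16% higher and 6.32% lower with TNFa, 6.75% and 5.47% with BMP4, and 5.47% and 6.2% with TNFa+BMP4 against TNFa. Of 10 further IAP and TRAF genes 9 were tested (Naip1 was below the minimum level), and 0 were called higher and 0 lower with TNFa, with a median difference of -0.03. At the share over all genes, a list of this length gives few calls or none, so the count says nothing particular about it. BMP4 gave 1 higher (Birc7, outside the naming rule) and 2 lower in this list, again small numbers. Traf5, another TRAF of NF-kB signalling, was at 6.82, 6.75 and 6.69 in BMP4 replicates 1 to 3, against 7.42, 7.13 and 7.22 in untreated replicates 1 to 3. The groups did not overlap, and the difference was -0.51 ± 0.08 (SE, limma adjusted p = 0.0003), called in all 6 fits that left out 1 library. Traf5 differed by -0.37 ± 0.08 with TNFa+BMP4 against TNFa, a call lost without TNFa replicate 1 (-0.27). Traf4 differed by -0.32 ± 0.07 with BMP4 (limma adjusted p = 0.0043), a call lost without untreated replicate 1 (-0.25).

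**Figure D4:**
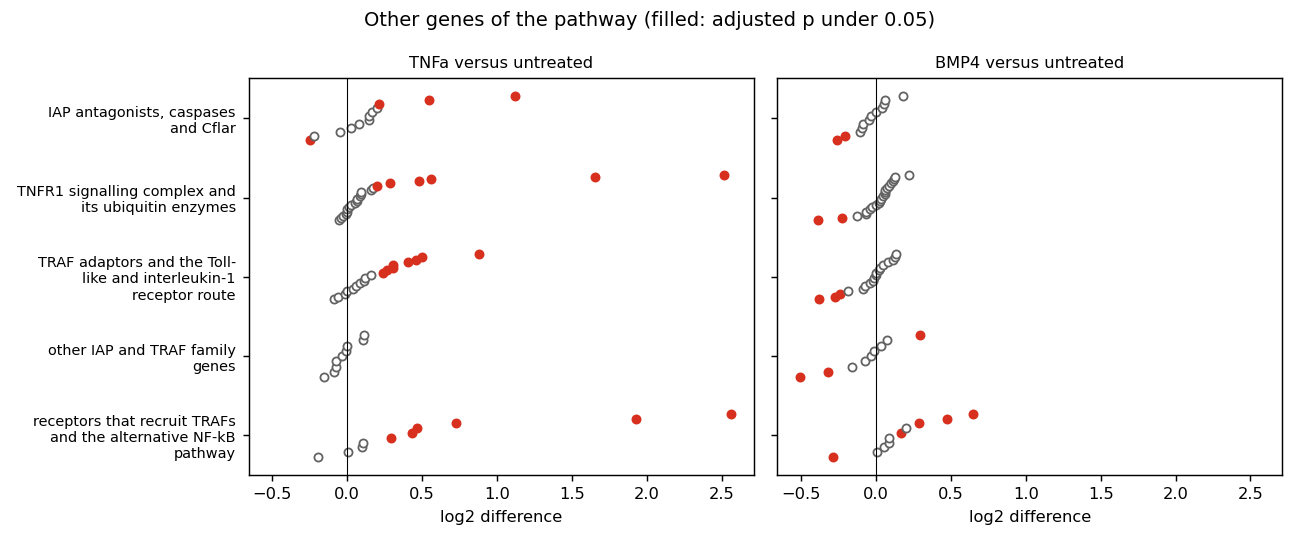
Log2 differences of the other genes of the pathway, 1 point per gene in 5 lists, for TNFa (left) and BMP4 (right), each against untreated cells; filled points have a limma adjusted p under 0.05. With TNFa the called genes lie to the right in 4 of the 5 lists, save 1 to the left, and none is called among the other IAP and TRAF genes; with BMP4 the called genes lie on both sides and within 0.65 of 0.

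In the TNF receptor complex and its ubiquitin enzymes 6 of 22 tested genes were called higher and 0 lower with TNFa, with a median of 0.08. They included the ubiquitin-editing brake Tnfaip3 (2.52 ± 0.11, SE), its partner Tnip1 (1.65 ± 0.05) and the deubiquitinase Cyld (0.56 ± 0.05). With BMP4 0 were higher and 2 lower, small counts beside the shares over all genes. Cyld fell by 0.23 ± 0.05 with BMP4 and by 0.32 ± 0.05 with TNFa+BMP4 against TNFa, both calls held in all 6 fits without 1 library. Tnfaip3 differed by -0.39 with BMP4, a call held in 3 of 6, and the count of called genes was 1 to 2 in those fits. With TNFa+BMP4 against TNFa 0 were higher and 2 lower, and the second, Tnip1 (-0.18), held in 1 of 6.

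Among receptors that recruit TRAFs and genes of the alternative NF-kB pathway, 6 of 10 tested were called higher and 0 lower with TNFa, with a median of 0.36. The alternative pathway's own subunits led, with Relb at 2.56 ± 0.08 (SE) and Nfkb2 at 1.93 ± 0.05, followed by the TRAF-binding receptor Tnfrsf9 (0.73 ± 0.12, against 3.03 in the authors' deposited table). With BMP4 4 were higher and 1 lower, including Tnfrsf11b (0.65 ± 0.08), which encodes the decoy receptor osteoprotegerin, and Tnfrsf12a (0.47 ± 0.07). Relb differed by 0.29 with BMP4, a call held in 2 of 6 fits without 1 library, in which 2 to 4 genes of the list were called. With TNFa+BMP4 against TNFa 4 were higher and 0 lower, Tnfrsf11b by 0.61 and Tnfrsf12a by 0.46, and without 1 library 2 to 5 were called. A further 3 genes of the list, Cd40, Tnfrsf11a and Tnfrsf19, were below the minimum level.

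Among TRAF adaptors and the Toll-like and interleukin-1 receptor route, 8 of 18 tested were called higher and 0 lower with TNFa, with a median of 0.14, while Traf6 itself was not called. They included the kinases Ikbke (0.88 ± 0.10, SE) and Irak2 (0.50 ± 0.08) and the scaffold Sqstm1 (0.46 ± 0.05). With BMP4 0 were higher and 3 lower, small counts beside the 5.47% called lower over all genes. Among them were Irak2 (-0.38 ± 0.08) and Irak3 at -0.28, held in 3 of 6 fits without 1 library, in which 1 to 3 were called. Irak2 also fell by 0.46 ± 0.08 with TNFa+BMP4 against TNFa, where 0 were higher and 2 lower. The second there, Trafd1 (-0.28), held in 2 of 6.

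Among IAP antagonists, caspases and Cflar, 3 of 12 tested were called higher and 1 lower with TNFa, with a median of 0.15. Xaf1, whose product binds and opposes XIAP, rose by 1.12 ± 0.09 (SE), while Xiap itself was not called. With BMP4 0 were higher and 2 lower, again small counts, among them Apaf1, the scaffold of the apoptosome, at -0.21, held in 2 of 6 fits without 1 library. With TNFa+BMP4 against TNFa 1 was higher and 2 lower. Apaf1 fell by 0.29 ± 0.06, held in all 6, and Xaf1 by 0.40 ± 0.09, a call lost without TNFa replicate 1 (-0.31), while Cycs (0.21) held in 1 of 6. Without 1 library 2 to 3 genes of the list were called with TNFa, 0 to 2 with BMP4 and 1 to 3 with TNFa+BMP4 against TNFa.

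The libraries on which calls of list genes rested were as follows. With BMP4, Tnfaip3 was lost without BMP4 replicate 1 or untreated replicate 1 or 3 (-0.39 to -0.16), and Relb without BMP4 replicate 1 or 2 or untreated replicate 1 or 2 (0.16 to 0.29). Irak3 was lost without BMP4 replicate 1 or 3 or untreated replicate 2 (-0.27 to -0.19), and Apaf1 without BMP4 replicate 1 or 3 or untreated replicate 1 or 2 (-0.22 to -0.17). With TNFa+BMP4 against TNFa, Trafd1 was lost without TNFa+BMP4 replicate 1 or 2 or TNFa replicate 1 or 3 (-0.26 to -0.22). Tnip1 was called only without TNFa+BMP4 replicate 1, and Cycs only without TNFa+BMP4 replicate 3. Without a batch term the TNFa calls of Cyld, Irak2 and Tnfrsf9 were lost, as were the BMP4 calls of Traf5, Traf4, Cyld, Tnfaip3, Tnfrsf11b, Relb, Irak2, Irak3 and Apaf1. In TNFa+BMP4 against TNFa, that fit left Tnfrsf12a called among the list genes named by rule.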

How the data were processed

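RNA from 12 libraries of MC3T3-E1 cells was sequenced as 150 bp paired-end reads of polyA RNA, per the labels. The mm10 build, Trim Galore, HISAT2 and HOMER are listed in the submitters' processing notes, with no versions. Per the file headers, the authors counted raw reads over exons with HOMER, kept 1 transcript per gene, and tested pairs of groups with batch as a factor. The deposited library values are on a log2 scale, with no transformation stated. The same deposited table holds the authors' log2 fold changes and adjusted p-values, and whether counting used strand is not given in the sources used here.

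Here limma 3.58.1 (R 4.3.3) was run on the log2 values of the whole table, with the 4 groups, an additive batch term, a variance trend and 7 residual degrees of freedom. Of 25124 entries, 7423 were at 0 throughout, and 11765 averaging 4 or more on the log2 scale were tested. The threshold for a call was a Benjamini-Hochberg adjusted p under 0.05, contrast by contrast. Transcript positions are the file's. The values carry no counts, so no counting interval was formed.

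The members and gene lists were chosen with earlier results of these data known. Named genes are the 7 members, the 3 called genes per list with the largest TNFa difference, up to 2 more per list called in another contrast, and the 3 genes most like each rising member. In the list of IAP antagonists Septin4 was not found by symbol. Some genes that these rules name are not reported here.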

Additional observations from a re-analysis of the deposited data

How the results depend on the processing

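The 42 member differences (7 genes, 6 contrasts) were recomputed under 20 alternatives, giving 617 values, of which 615 kept their direction or stayed uncalled on the same side of the threshold. Among these, 32 values changed sign, all of differences not called in either fit. The exceptions were Birc2 with BMP4 (0.27, called without untreated replicate 2, so that 0 to 1 members were called when 1 library was left out) and Traf1 with TNFa+BMP4 against BMP4 (0.58, not called without a batch term). Traf1 lies below the stricter minimum of 6 and has no value there, and the interaction has no fit on only the groups of a contrast. Counts over all genes moved more. Without a batch term they were 383 for TNFa (1822 with it), 114 for BMP4 (1438), 869 for TNFa+BMP4 against untreated (3673), 105 for TNFa+BMP4 against TNFa (1373), 345 for TNFa+BMP4 against BMP4 (1905) and 0 for the interaction (2). With quantile normalization the share of calls that were higher was 50.3% for TNFa (59.2% as reported), 46.8% for BMP4 (55.2%), 44.9% for TNFa+BMP4 against untreated (53.7%) and 47.9% for TNFa+BMP4 against BMP4 (54.2%), so that in the last 3 the larger share turned round. With 1 library left out they ranged from 756 to 1332 for BMP4, from 752 to 1066 for TNFa+BMP4 against TNFa and from 0 to 7 for the interaction. TNFa+BMP4 against TNFa gave 906 with no minimum level and 2096 on only the groups of the contrast. The interaction gave 1 with quantile normalization, 0 with no minimum level and 15 in batch 2 alone. The causes were not tested.

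The replicate numbers follow batch. Within batch 2, the replicate 2 minus replicate 3 differences correlated weakly between groups, at 0.02 to 0.16 over 6 pairs of groups. These values do not settle whether the replicate numbers also pair the samples. With the replicate number as a block the counts were 1738 for TNFa, 1329 for BMP4, 3635 for TNFa+BMP4 against untreated, 1279 for TNFa+BMP4 against TNFa, 1812 for TNFa+BMP4 against BMP4 and 1 for the interaction. The block changed no call of a member.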
